A study of Mus musculus with 8 samples.

Results

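Chemokines are small secreted proteins that guide leukocytes, and they act through receptors with several membrane passes that couple to inhibitory G proteins. They are named by the spacing of their first cysteines (CC, CXC, XC and CX3C), most inflammatory members share receptors, and atypical receptors bind chemokines and clear them without G protein signalling. In injured kidney, tubule cells, endothelium, fibroblasts and macrophages are known sources of ligand, and the receptors are carried mostly by incoming leukocytes.

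The members were all rows of the deposited gene table whose symbol begins with Ccl, Cxcl, Ccr or Cxcr and a digit, together with Cx3cl1, Xcl1, Xcr1 and Ackr1 to Ackr4. There were 68 such rows of 34745, with 63 distinct symbols, of which 46 rows were ligands, 18 signalling receptors and 4 atypical receptors. Of these, 50 passed the filter on low counts and were tested, 18 were not tested, and 10 of those had 0 counts in every library. The 8 libraries of messenger RNA came from kidney tissue of mice labelled WT, taken at day 14, namely uIRI+MSCs transplantation (uIRI+MSC, n = 3), uIRI (n = 3) and sham (n = 2). Renal work usually reads uIRI as unilateral ischaemia-reperfusion injury, and MSC as a mesenchymal stromal or stem cell, but the labels expand neither and give no cell source, dose, sex or age. The labels do not say whether the libraries of a group are separate animals, so each p-value measures the spread between these samples only.

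Depth ran from 11592986 to 24300112 counts a library. Genes of the mitochondrial genome took 6.07, 6.24 and 11.3% of counts in uIRI+MSC 1, 2 and 3, 3.49 to 4.84% in uIRI and 14.2% in both sham libraries, so uIRI+MSC 3 stood apart within its group. Markers of proximal tubule, thick limb, collecting duct and podocytes were present in every library, with proximal tubule markers summing to 6835 to 8236 CPM in uIRI+MSC, 1287 to 4400 CPM in uIRI and 22500 to 24630 CPM in sham. Values in CPM are counts per 1000000 after TMM scaling and serve to compare libraries. Values in FPKM are the authors' deposited values per length and serve to compare genes. A log2 change is given with its SE and comes from edgeR's quasi-likelihood test over all 16576 tested genes, with p-values adjusted by the method of Benjamini and Hochberg and a threshold of 0.05.

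Most chemokine and receptor transcripts that could be tested were higher in both injured groups than in sham. In uIRI against sham 42 of the 50 tested members were higher, 3 were lower (Ackr3, Ccl25 and Ccl28) and 5 did not pass, where 54.6% of all tested genes passed, 28.3% of them higher and 26.3% lower. The libraries of these groups did not overlap for 45 members higher and 5 lower in uIRI, against 40.6% and 36.5% of all tested genes (77.1% in all). In uIRI+MSC against sham 32 members were higher, 2 were lower (Ackr3 and Ccl28) and 16 did not pass, where 42.4% of all genes passed, 22.1% higher and 20.3% lower. With only these 2 groups in the filter and fit 40 members were tested and 31 were higher, so some of the 50 entered the test through uIRI. The counts of 42 and 32 are therefore no like measure of the injured groups. Both comparisons use the same 2 sham libraries. The median log2 change of the members was 3.59 in uIRI and 3.0 in uIRI+MSC, or 3.2 and 2.80 with genes that had 0 counts in sham set at their lower bound, beside 0.06 and 0.03 for all tested genes. Of the tested members, 25 had fewer than 10 counts in each sham library and entered the test through the injured groups, so these counts and medians describe the members that could be tested and not the family as a whole. With library size alone in place of TMM the median of all genes was 0.73 in uIRI against sham and 0.55 in uIRI+MSC against sham, 45 and 37 members passed as higher and 0 as lower, and all genes split into 9044 higher and 1989 lower in uIRI against sham, in place of 4683 and 4361.

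**Figure D1:**
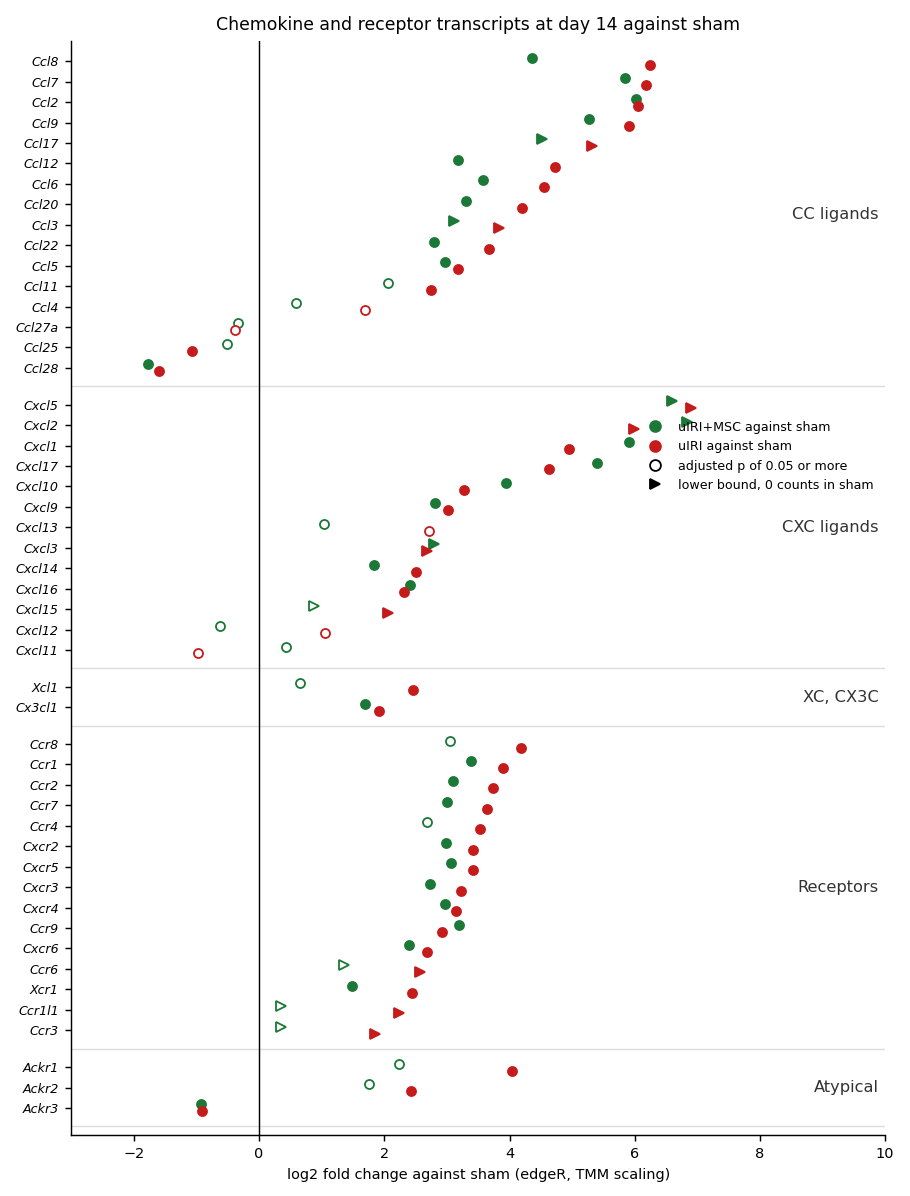
Log2 fold change against sham (x axis) for 49 tested members, grouped by class down the page, for uIRI+MSC and uIRI. Filled symbols passed an adjusted p of 0.05 and triangles are lower bounds for genes with 0 counts in sham. All signalling receptors drawn lie right of 0 in both groups, and Ackr3 and Ccl28 lie left of 0 in both under TMM scaling.

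The ligand with the highest mean level in both injured groups was Cx3cl1 (fractalkine), a membrane-anchored chemokine that also holds leukocytes to endothelium. It averaged 79.6 ± 12.4 FPKM in uIRI+MSC (SD, n = 3), 103 ± 18.1 FPKM in uIRI (SD, n = 3) and 17.1 ± 0.0548 FPKM in sham (SD, n = 2). In single uIRI libraries the order differed, with Cxcl14 above it in uIRI 1 (119.6 against 100.6 FPKM) and Ccl8 above it in uIRI 3 (157.5 against 86.0 FPKM). By library Cx3cl1 stood at 389, 339 and 292 CPM in uIRI+MSC, 370, 485 and 335 CPM in uIRI and 109 and 100.3 CPM in sham. No injured library overlapped sham, while the injured groups overlapped each other. The log2 change was 1.70 ± 0.21 in uIRI+MSC against sham (adjusted p = 0.000534, edgeR) and 1.92 ± 0.21 in uIRI against sham (adjusted p = 0.000159, edgeR). Cx3cl1 (ENSMUSG00000031778) lies on chromosome 8, 94772009 to 94782423 on GRCm38, between Ccl22 and Ccl17.

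Cx3cr1, the sole signalling receptor of Cx3cl1 and a marker of resident macrophages, falls outside the naming rule and is given here for the pair. It stood at 81.9, 87.9 and 78.2 CPM in uIRI+MSC, 143, 128 and 139 CPM in uIRI, and 8.36 and 8.75 CPM in sham. The 3 groups did not overlap, with uIRI+MSC between uIRI and sham. Its log2 change was 3.27 ± 0.14 in uIRI+MSC against sham and 4.0 ± 0.15 in uIRI against sham, each larger than that of its ligand.

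Cxcl16, the other chemokine made with a membrane anchor and the ligand of Cxcr6 on T and natural killer cells, stood at 233, 295 and 222 CPM in uIRI+MSC, 225, 240.0 and 239 CPM in uIRI, and 48.8 and 45.2 CPM in sham. All 6 injured libraries lay above sham and the injured groups overlapped. The log2 change was 2.41 ± 0.17 in uIRI+MSC against sham (adjusted p = 7.26e-05, edgeR) and 2.32 ± 0.17 in uIRI against sham (adjusted p = 3.38e-05, edgeR). Cxcr6 stood at 9.38, 15.6 and 8.90 CPM in uIRI+MSC, 14.4, 10.6 and 16.1 CPM in uIRI, and 2.53 and 1.75 CPM in sham. Its log2 changes of 2.40 ± 0.36 and 2.68 ± 0.36 against sham, in uIRI+MSC and uIRI, were close in size to those of its ligand.

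Cxcl14, a chemokine of epithelium and fibroblasts, stood at 116, 45.0 and 96.4 CPM in uIRI+MSC, 178, 155 and 73.4 CPM in uIRI, and 28.3 and 19.6 CPM in sham. The libraries of each injured group spread widely but all lay above sham. It rose in uIRI against sham by 2.5 ± 0.50 (adjusted p = 0.0029, edgeR) and in uIRI+MSC against sham by 1.84 ± 0.49 (adjusted p = 0.0155, edgeR). The call in uIRI+MSC was lost without sham 1 (2.16) and without sham 2 (1.64).

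**Figure D2:**
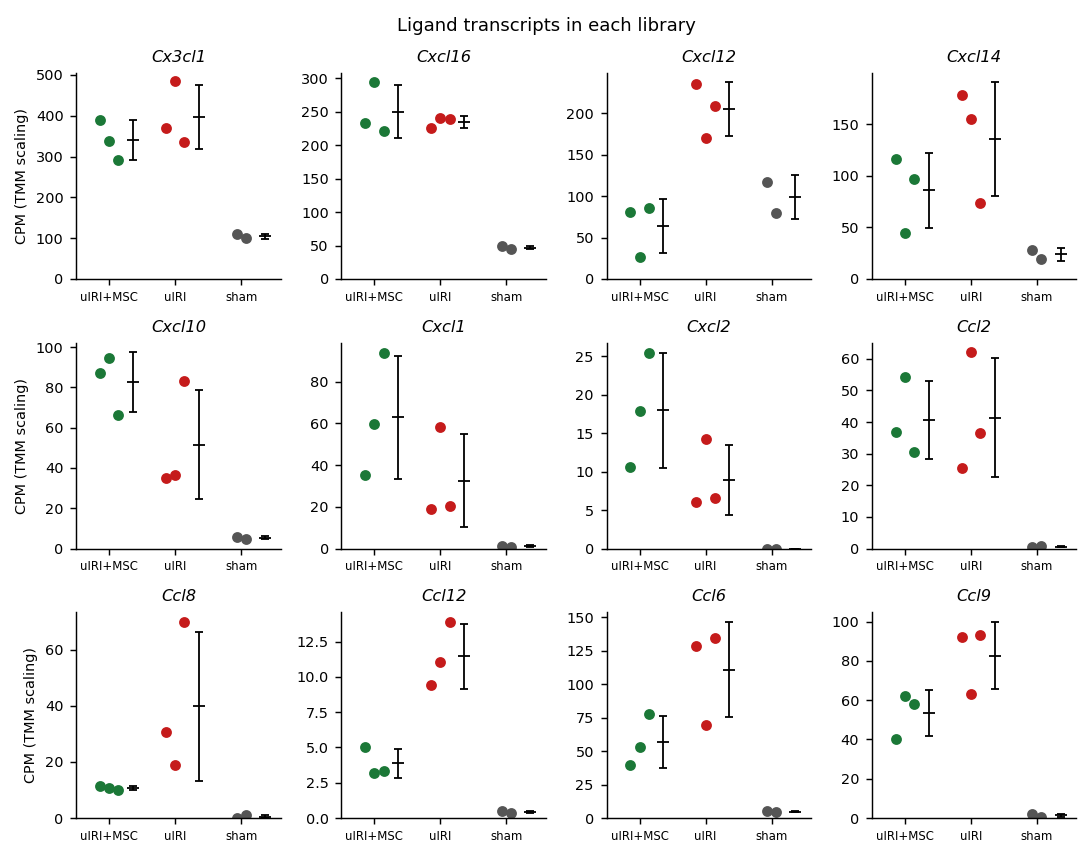
CPM after TMM scaling (y axis, linear, from 0) of 12 ligands in each library of uIRI+MSC, uIRI and sham; points are libraries and the bars beside them the mean and SD. Cxcl12 and Ccl12 in uIRI+MSC lie below every uIRI library, whereas Cxcl16 and Ccl2 overlap between the injured groups.

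Cxcl12, the constitutive stromal chemokine that retains Cxcr4-bearing cells, differed from the inflammatory ligands. It stood at 80.3, 26.5 and 85.5 CPM in uIRI+MSC, 236, 170.4 and 209 CPM in uIRI, and 117 and 80.0 CPM in sham. Every uIRI library was above every library of the other groups, and uIRI+MSC overlapped sham, with uIRI+MSC 2 lowest. The log2 change in uIRI against sham was 1.06 ± 0.44 and did not pass (adjusted p = 0.072, edgeR; 0.00467 to 0.282 over the alternatives), although it passed with DESeq2, with library size alone, with only these groups in the fit and without uIRI+MSC 2. In uIRI+MSC against sham it was -0.62 ± 0.43 (adjusted p = 0.269, edgeR).

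Both receptors of Cxcl12 moved in opposite directions against sham. Cxcr4, the signalling receptor, stood at 16.4, 16.0 and 26.5 CPM in uIRI+MSC, 31.6, 15.6 and 19.7 CPM in uIRI, and 2.43 and 2.58 CPM in sham. It rose by 2.96 ± 0.40 in uIRI+MSC against sham (adjusted p = 0.000781, edgeR) and by 3.15 ± 0.40 in uIRI against sham (adjusted p = 0.000311, edgeR). Ackr3, the atypical receptor that takes up and degrades Cxcl12, stood at 43.3, 54.9 and 62.2 CPM in uIRI+MSC, 39.7, 69.5 and 53.3 CPM in uIRI, and 89.9 and 113 CPM in sham. All injured libraries lay below sham. Ackr3 had the highest level of all members in sham, 21.7 ± 4.78 FPKM (SD, n = 2), on the deposited per-length scale. Its log2 change was -0.93 ± 0.25 in uIRI+MSC against sham (adjusted p = 0.0155, edgeR) and -0.91 ± 0.24 in uIRI against sham (adjusted p = 0.0127, edgeR). Neither call held with library size alone (-0.42 and -0.26) or without sham 2 (-0.72 and -0.71). Ackr3 (ENSMUSG00000044337) lies on chromosome 1, 90203980 to 90216751.

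A first run of CC ligand genes lies on chromosome 11, 82035571 to 82305690, in the order Ccl2, Ccl7, Ccl11, Ccl12, Ccl8 and Ccl1. The 5 tested genes of this run were all higher in uIRI than in sham, beside 28.3% of all tested genes. Over both sham libraries these 5 had from 2 (Ccl7) to 13 (Ccl2) counts, so they entered the test through the injured groups. Ccl1 had too few counts to test. Ccl2, the main ligand of Ccr2 on inflammatory monocytes, stood at 36.9, 54.3 and 30.4 CPM in uIRI+MSC, 25.4, 62 and 36.7 CPM in uIRI, and 0.583 and 0.645 CPM in sham. The injured groups overlapped fully, and both lay above sham. The log2 change was 6.03 ± 0.58 in uIRI+MSC against sham (adjusted p = 0.000178, edgeR) and 6.06 ± 0.58 in uIRI against sham (adjusted p = 8.61e-05, edgeR). Ccl7, a second Ccr2 ligand, had 2 counts in sham in all and a ratio to sham of 59.3 in uIRI+MSC (95% counting interval 16.3 to 492) and 76.0 in uIRI (20.9 to 629), and passed in both. Its fitted changes were 4.96 and 5.29, in uIRI+MSC and uIRI, without sham 1, and 9.85 and 10.18 without sham 2.

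Ccl12, a Ccr2 ligand found in mouse, had 3 groups that did not overlap. It stood at 5.03, 3.22 and 3.36 CPM in uIRI+MSC, 9.40, 11.0 and 13.9 CPM in uIRI, and 0.486 and 0.368 CPM in sham. It rose by 3.18 ± 0.40 in uIRI+MSC and 4.72 ± 0.40 in uIRI, both against sham (adjusted p = 0.000584 and 5.47e-05, edgeR). Ccl8, which in mouse acts on Ccr8, stood at 11.4, 10.8 and 10.1 CPM in uIRI+MSC, 30.8, 19.0 and 69.8 CPM in uIRI, and 0.0972 and 0.921 CPM in sham. The uIRI libraries spread more than 3-fold, with uIRI 3 highest, while those of uIRI+MSC were nearly level. Its log2 change was 4.36 ± 0.81 in uIRI+MSC and 6.25 ± 0.81 in uIRI (adjusted p = 0.00323 and 0.000326, edgeR), and the uIRI value was 5.58 without uIRI 3, 5.45 without sham 1 and 8.61 without sham 2. On the per-length scale Ccl8 averaged 22.1 ± 1.67 FPKM in uIRI+MSC and 91.1 ± 59.7 FPKM in uIRI (SD, n = 3 each). In uIRI 1, 2 and 3 it stood at 73.7, 42.1 and 157.5 FPKM, above Cxcl14 (119.6, 96.0 and 46.4 FPKM) in uIRI 3 only. In uIRI+MSC against sham Ccl8 missed the threshold with limma-voom, and without sham 1 and sham 2 it was 3.57 and 6.74. Ccl11, the eosinophil chemokine eotaxin, had 3 counts over both sham libraries and a ratio to sham of 4.11 in uIRI+MSC (95% counting interval 1.27 to 21.1) and 7.12 in uIRI (2.35 to 35.3). It passed in uIRI only, lost the call without sham 2 (2.33), was 3.35 without sham 1, and the change between the injured groups was -0.69 ± 0.46 (adjusted p = 0.438, edgeR).

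A second run on chromosome 11, 83525778 to 83664683, holds Ccl5, Ccl9, Ccl6, Ccl3 and Ccl4. Ccl6 and Ccl9, mouse chemokines of myeloid cells that act on Ccr1, had the higher levels. Ccl6 stood at 39.4, 52.9 and 77.6 CPM in uIRI+MSC, 128, 69.7 and 134 CPM in uIRI, and 5.15 and 4.33 CPM in sham. Ccl9 stood at 40.2, 62.1 and 58.0 CPM in uIRI+MSC, 92.0, 63.0 and 93.1 CPM in uIRI, and 2.04 and 0.737 CPM in sham. For Ccl9 the 3 groups did not overlap, and for Ccl6 the injured groups did. Ccl6 rose by 3.58 ± 0.42 in uIRI+MSC and 4.55 ± 0.43 in uIRI, and Ccl9 by 5.27 ± 0.42 and 5.90 ± 0.43, with adjusted p no higher than 0.000396 by edgeR. Without sham 1, Ccl9 was 6.20 and 6.82.

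Ccl5 (RANTES), a product of T and natural killer cells that acts on Ccr1 and Ccr3, stood at 18.2, 28.9 and 7.47 CPM in uIRI+MSC, 19.9, 22.2 and 20.9 CPM in uIRI, and 3.01 and 1.66 CPM in sham. The uIRI libraries agreed closely with each other, and those of uIRI+MSC spread on both sides of them. It rose by 2.97 ± 0.56 in uIRI+MSC and 3.17 ± 0.56 in uIRI against sham (adjusted p = 0.00348 and 0.00157, edgeR). Ccl3, the macrophage inflammatory protein MIP-1α, had 0 counts in sham and was at least 8.64-fold higher in uIRI+MSC and at least 14.2-fold higher in uIRI when sham is set at a floor of 3 counts over the group. Its neighbour Ccl4 (MIP-1β) stood at 1.38, 1.57 and 0.420 CPM in uIRI+MSC, 2.12, 1.80 and 3.53 CPM in uIRI, and 1.26 and 0.276 CPM in sham, and passed in neither comparison with sham. In uIRI against sham it passed with DESeq2, with library size alone, without uIRI+MSC 3 and without sham 1 (3.15), and without sham 2 it was 0.99. Intervals and floors cover counting error only.

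Of the other CC ligands, Ccl22 and Ccl17, which share the receptor Ccr4 on regulatory and type 2 T cells, lie on either side of Cx3cl1 on chromosome 8. Ccl22 rose by 2.80 ± 0.61 in uIRI+MSC and 3.67 ± 0.61 in uIRI against sham, and missed the threshold in uIRI+MSC with limma-voom (2.68). Ccl17 had 0 counts in sham and stood at 4.10, 3.86 and 0.756 CPM in uIRI+MSC and 7.17, 7.26 and 1.41 CPM in uIRI. It was at least 22.8-fold and 39.8-fold higher, in uIRI+MSC and uIRI, than a floor of 3 counts over sham. The third library of each injured group was low for Ccl17. Its call in uIRI+MSC was lost with limma-voom, without sham 1 and without sham 2. Ccl20, which draws Ccr6-bearing lymphocytes, had 3 counts over both sham libraries and a ratio to sham of 10.5 in uIRI+MSC (95% counting interval 3.45 to 52.0) and 19.1 in uIRI (6.45 to 93.4), and lost its call in uIRI+MSC without sham 1 (2.40). Without sham 2 its fitted change was 7.86 in uIRI+MSC and 8.75 in uIRI, and without sham 1 it was 3.29 in uIRI.

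Ccl28 and Ccl25 were the ligands that passed as lower than sham. Ccl28, a mucosal chemokine that acts on Ccr10 and Ccr3, stood at 4.23, 1.43 and 6.47 CPM in uIRI+MSC, 4.24, 4.84 and 4.52 CPM in uIRI, and 19.3 and 8.10 CPM in sham. The sham libraries differed more than 2-fold from each other, and all injured libraries lay below both. Its log2 change was -1.77 ± 0.54 in uIRI+MSC and -1.59 ± 0.53 in uIRI (adjusted p = 0.0277 and 0.0306, edgeR). The calls were lost with library size alone (-1.24 and -0.91) and without sham 1 (-0.98 and -0.81), the uIRI one without any 1 uIRI library and the uIRI+MSC one without uIRI+MSC 1. Ccl25, known from thymus and small intestine as the ligand of Ccr9, stood at 5.03, 3.93 and 3.95 CPM in uIRI+MSC, 2.49, 3.26 and 2.97 CPM in uIRI, and 7.77 and 4.51 CPM in sham. It fell in uIRI by 1.08 ± 0.29 on the log2 scale (adjusted p = 0.0137, edgeR), was -0.51 ± 0.30 in uIRI+MSC against sham, and lost its call with library size alone (-0.40), without sham 1 (-0.61) and under the replicate block (-1.02). Ccl27a stood at 7.20, 8.43 and 6.55 CPM in uIRI+MSC, 6.5, 7.26 and 7.68 CPM in uIRI, and 9.23 and 9.48 CPM in sham, and its change in uIRI of -0.39 ± 0.20 did not pass and was 0.27 with library size alone.

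The CXC ligands of neutrophils form a run on chromosome 5, 90759360 to 90905938, in the order Cxcl5, Cxcl3, Cxcl15, Cxcl1 and Cxcl2. All 5 passed as higher in uIRI than in sham, beside 28.3% of all tested genes. Of them 4 had 0 counts in sham and so entered the test through the injured groups. Cxcl1 (KC) stood at 35.1, 59.8 and 94.0 CPM in uIRI+MSC, 19.1, 58.2 and 20.3 CPM in uIRI, and 1.36 and 0.737 CPM in sham. The injured groups overlapped through uIRI 2, which was far above the other uIRI libraries. Cxcl1 rose by 5.90 ± 0.81 in uIRI+MSC (adjusted p = 0.000815, edgeR) and by 4.96 ± 0.80 in uIRI (adjusted p = 0.000943, edgeR; 4.23 without uIRI 2), both against sham. Cxcl2 (MIP-2) stood at 10.6, 17.8 and 25.5 CPM in uIRI+MSC and 5.99, 14.2 and 6.5 CPM in uIRI. It was at least 114-fold higher in uIRI+MSC and at least 63.4-fold higher in uIRI than a floor of 3 counts over sham.

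Cxcl5 (LIX) stood at 16.3, 11.4 and 11.4 CPM in uIRI+MSC and 23.4, 11.3 and 14.8 CPM in uIRI, at least 96.9-fold and 119-fold above that floor. Cxcl3 was at least 6.94-fold higher in uIRI+MSC and 6.40-fold in uIRI. Cxcl15, best known from mouse lung, reached 0.0419, 0.143 and 0.840 CPM in uIRI+MSC and 0.741, 0.330 and 0.706 CPM in uIRI. Its call in uIRI (at least 4.15-fold) was lost without any 1 library of uIRI or sham, without uIRI+MSC 2 and with the replicate block. The receptor Cxcr2 was low beside these ligands, at 0.305 FPKM in uIRI+MSC, 0.469 FPKM in uIRI and 0.0262 FPKM in sham, against 23.3, 13.3 and 0.270 FPKM for Cxcl1. By library Cxcr2 stood at 2.09, 0.500 and 2.02 CPM in uIRI+MSC, 3.06, 1.47 and 1.74 CPM in uIRI, and 0.292 and 0.0921 CPM in sham. Its log2 change of 3.42 ± 0.87 in uIRI against sham (adjusted p = 0.00961, edgeR) lost its call without sham 2 (2.84) and was 4.44 without sham 1. The change of 2.99 ± 0.89 in uIRI+MSC against sham (adjusted p = 0.0252, edgeR) lost its call with limma-voom and without uIRI+MSC 1 (2.66), uIRI+MSC 3 (2.83), sham 1 (4.02) or sham 2 (2.42). Of 10 listed neutrophil markers 3 could be tested and rose in both injured groups, their sum being 18.8 to 33.5 CPM in uIRI+MSC, 33.1 to 44.6 CPM in uIRI and 1.07 to 3.96 CPM in sham. Most of that sum was Csf3r, which monocytes also carry, and Mpo had 0 counts in every library, with Ly6g and Elane at 0 or near it.

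The sequences just before the start sites are shown for 3 of these ligands, which share a motif of the NF-κB family, and for Cxcl10. Whether the motif has a part in their levels was not tested. RefSeq promoters on GRCm38.p6 matched 44 of the 63 symbols, 38 of them tested members. The motif, GGG then any pair of bases then TTTCC, searched on both strands in the 250 bases before the start, was found in 464 of 32851 promoters (1.41%). Among the 38 tested members it was in 6 (15.8%), namely Cxcl1, Cxcl2, Cxcl3, Ccl20, Ccl9 and Ccr3. The 38 members passed the count filter, Cxcl2, Cxcl3 and Ccr3 with 0 counts in sham, while the background holds all promoters, so the shares are of unlike sets. Each member was searched only in the promoter nearest its deposited start, whereas the background counts all 32851. That promoter lay 88772 bases from the deposited start for Ccr9 and 8307 bases for Ccr1l1. Cxcl1, Cxcl2 and Cxcl3 are neighbours in the run above, so their matches are not independent. The motif GAAA, any pair of bases, GAAA, part of the interferon-stimulated response element, was found in 978 promoters (2.98%) and in 2 tested members (5.26%), Cxcl10 and Cxcl14. The 120 bases before the start are printed for Cxcl1 (chr5:90891125-90891244, plus strand), Cxcl2 (chr5:90903779-90903898, plus strand) and Cxcl3 (chr5:90785981-90786100, plus strand), and bases 250 to 131 before the start for Cxcl10 (chr5:92349020-92349139, minus strand), with motif matches in capitals.
Cxcl1: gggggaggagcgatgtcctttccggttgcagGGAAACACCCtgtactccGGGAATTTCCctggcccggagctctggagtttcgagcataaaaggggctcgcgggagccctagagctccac
Cxcl2: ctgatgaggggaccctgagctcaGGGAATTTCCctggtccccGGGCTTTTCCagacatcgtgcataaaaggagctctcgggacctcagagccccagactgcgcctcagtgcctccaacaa
Cxcl3: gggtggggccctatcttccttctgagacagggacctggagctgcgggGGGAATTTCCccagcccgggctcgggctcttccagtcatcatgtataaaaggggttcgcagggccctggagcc
Cxcl10: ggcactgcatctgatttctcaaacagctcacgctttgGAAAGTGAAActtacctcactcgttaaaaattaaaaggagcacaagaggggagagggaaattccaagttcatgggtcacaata
The match GGGAATTTCC stands in Cxcl1, Cxcl2 and Cxcl3, beginning 71, 97 and 73 bases before the start. A match is a description of the letters and not of binding, and no match in another member that was searched says only that these letters are absent from its window. Cxcl15 of the same run was searched and had no match, and Cxcl5 was not searched.

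The interferon-induced ligands of Cxcr3, the receptor of activated T cells, lie together on chromosome 5, 92321347 to 92365485. Cxcl10 (IP-10) stood at 87.4, 94.6 and 66.2 CPM in uIRI+MSC, 35.1, 36.8 and 83.0 CPM in uIRI, and 5.83 and 4.88 CPM in sham. The injured groups overlapped only through uIRI 3. It rose by 3.95 ± 0.45 in uIRI+MSC (adjusted p = 0.000367, edgeR) and by 3.27 ± 0.44 in uIRI (adjusted p = 0.000385, edgeR). Cxcl9 (MIG) stood at 12.7, 37.8 and 15.2 CPM in uIRI+MSC, 27.8, 16.6 and 31.7 CPM in uIRI, and 2.72 and 3.50 CPM in sham, with changes against sham of 2.81 ± 0.56 (2.16 without uIRI+MSC 2) and 3.02 ± 0.56 that both passed. Cxcl11 (I-TAC) went a different way. It stood at 1.34, 2.5 and 1.60 CPM in uIRI+MSC, 0.539, 0.697 and 0.801 CPM in uIRI, and 1.65 and 1.01 CPM in sham. Every uIRI library lay below sham, but the change of -0.97 ± 0.44 did not pass (adjusted p = 0.0903, edgeR). Cxcr3 stood at 8.50, 12.9 and 6.13 CPM in uIRI+MSC, 12.9, 12.1 and 13.7 CPM in uIRI, and 1.65 and 1.11 CPM in sham. It rose by 2.73 ± 0.38 in uIRI+MSC and 3.22 ± 0.38 in uIRI (adjusted p = 0.000834 and 0.000207, edgeR).

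Of the remaining ligands, Cxcl17, a mucosal chemokine, had 2 counts over both sham libraries and a ratio to sham of 43.8 in uIRI+MSC (95% counting interval 12.0 to 364) and 25.6 in uIRI (6.98 to 213), and passed in both. Cxcl13, which draws B cells into follicles, stood at 0.503, 0.286 and 0 CPM in uIRI+MSC, 0.876, 0.550 and 1.51 CPM in uIRI, and 0 and 0.276 CPM in sham, and did not pass, except in uIRI with library size alone and without uIRI+MSC 3. Xcl1 (lymphotactin), released by natural killer and CD8 T cells, stood at 0.628, 0.500 and 0.420 CPM in uIRI+MSC, 1.92, 1.43 and 2.26 CPM in uIRI, and 0.486 and 0.184 CPM in sham. It rose in uIRI by 2.47 ± 0.52 (adjusted p = 0.00371, edgeR; 3.32 without sham 1), and in uIRI+MSC against sham it was 0.66 ± 0.56 (adjusted p = 0.375, edgeR; 1.52 without sham 1). Its receptor Xcr1, carried by cross-presenting dendritic cells, stood at 5.44, 5.43 and 6.30 CPM in uIRI+MSC, 12.6, 7.96 and 12.7 CPM in uIRI, and 2.62 and 1.47 CPM in sham. The 3 groups did not overlap. Xcr1 rose by 1.48 ± 0.34 in uIRI+MSC (adjusted p = 0.00808, edgeR; not passed without sham 2, 1.16) and by 2.44 ± 0.34 in uIRI (adjusted p = 0.000458, edgeR).

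All 16 tested signalling receptors were higher in uIRI than in sham, beside 28.3% of all genes, and 9 of them had fewer than 10 counts in each sham library. In uIRI+MSC 11 of the 16 passed, beside 22.1% of all genes. The 16 include receptors such as Ccr1l1 and Ccr3 that passed the count filter through uIRI. In bulk tissue fewer cells of a type and less RNA per cell cannot be told apart. The 12 macrophage markers listed rose in both injured groups, with sums of 2026 to 2662 CPM in uIRI+MSC, 3383 to 5144 CPM in uIRI and 240 to 277 CPM in sham. The 10 T cell markers did too, with sums of 65.2 to 106 CPM in uIRI+MSC, 93.2 to 124 CPM in uIRI and 13.7 to 14.9 CPM in sham. Their part in the receptor values was not tested.

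**Figure D3:**
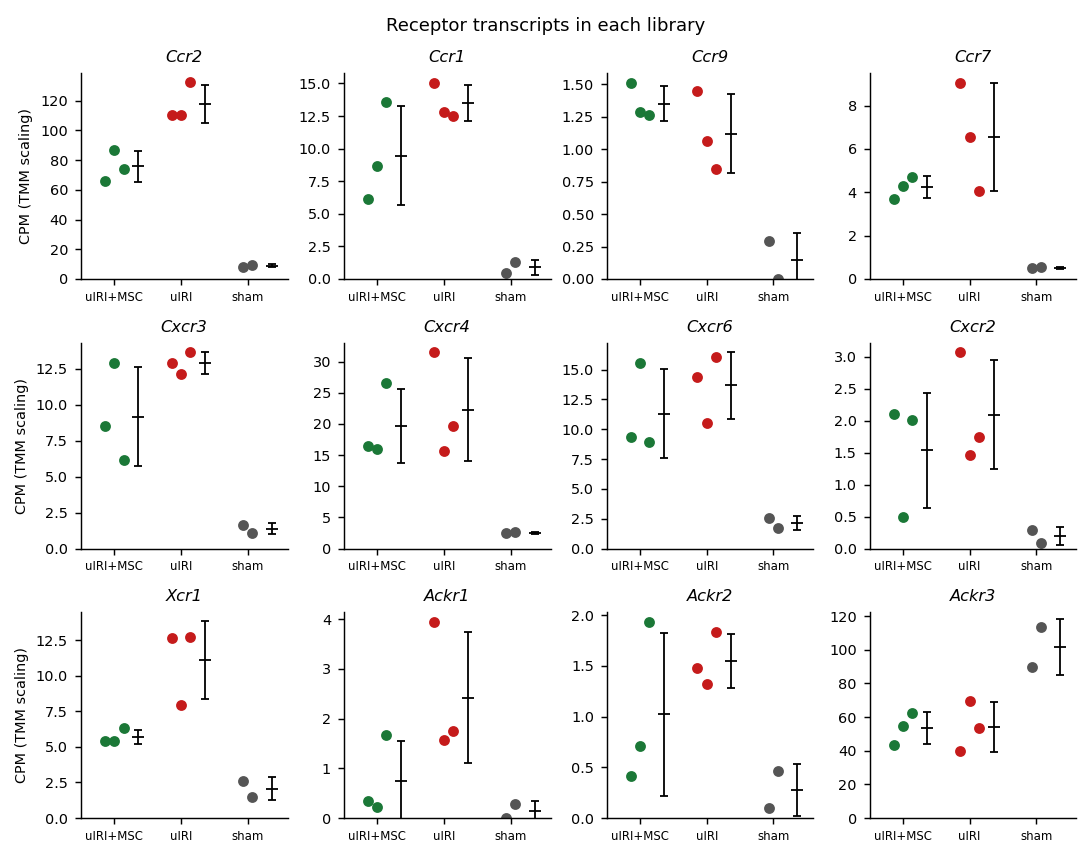
CPM after TMM scaling (y axis, linear, from 0) of 9 signalling and 3 atypical receptors in each library of uIRI+MSC, uIRI and sham; points are libraries, bars the mean and SD (cut at 0). Ccr2 and Xcr1 lie in 3 separate bands, with uIRI+MSC between uIRI and sham, and Ackr3 is highest in sham.

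Several receptor genes lie close together on chromosome 9, among them Ccr9, Cxcr6, Xcr1, Ccr1, Ccr1l1, Ccr3 and Ccr2. Each of these 7 passed as higher in uIRI than in sham, beside 28.3% of all tested genes. Ccr1l1 and Ccr3 had 0 counts in sham and Ccr9 had 3, so these entered the test through the injured groups. Ccr2, the receptor of inflammatory monocytes, stood at 66.3, 86.9 and 74.2 CPM in uIRI+MSC, 110.1, 110.3 and 132 CPM in uIRI, and 8.06 and 9.58 CPM in sham. The groups were apart, with uIRI+MSC between the others. Ccr2 rose by 3.10 ± 0.19 in uIRI+MSC (adjusted p = 5.96e-05, edgeR) and by 3.73 ± 0.19 in uIRI (adjusted p = 2.34e-05, edgeR) against sham. Ccr2 (ENSMUSG00000049103) spans 124101950 to 124113557.

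Ccr1, the receptor of Ccl6 and Ccl9, stood at 6.16, 8.65 and 13.6 CPM in uIRI+MSC, 15.1, 12.8 and 12.5 CPM in uIRI, and 0.486 and 1.29 CPM in sham, and passed in both at 3.38 ± 0.48 and 3.90 ± 0.48 (4.29 and 4.80 without sham 2).

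Ccr7, which brings dendritic and naive T cells to lymph nodes, stood at 3.69, 4.29 and 4.70 CPM in uIRI+MSC, 9.06, 6.56 and 4.05 CPM in uIRI, and 0.486 and 0.553 CPM in sham. It rose by 3.0 ± 0.46 in uIRI+MSC (adjusted p = 0.00135, edgeR) and by 3.64 ± 0.46 in uIRI (adjusted p = 0.000284, edgeR). Its ligand genes Ccl19 and Ccl21a are listed with 0 counts in every library and Ccl21b likewise, while 1 of 3 Ccl21c entries had a few counts. These genes have near-identical copies, and the sources used here do not say how reads that match several copies were counted, so their zeros are uncertain.

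The other receptors were low. Ccr9 had 3 counts over both sham libraries and a ratio to sham of 9.77 in uIRI+MSC (95% counting interval 3.21 to 48.5) and 8.11 in uIRI (2.69 to 40.1), the only tested signalling receptor with the larger value in uIRI+MSC. It passed in both, and its fitted changes of 3.19 and 2.93 were 2.23 and 1.95 without sham 2 and 7.77 and 7.49 without sham 1. Cxcr5, of follicular lymphocytes, had 1 count in sham and passed in both, but the call in uIRI was lost without sham 2 (2.49; 6.51 without sham 1), and the call in uIRI+MSC was lost with DESeq2, with no filter, with the replicate block and without any 1 library other than uIRI+MSC 3. Ccr4, Ccr8, Ccr6, Ccr3 and Ccr1l1 passed in uIRI and not in uIRI+MSC against sham. The differences between the injured groups for these 5, from -1.80 to -0.86 on the log2 scale, did not pass. In uIRI Ccr4 had a ratio of 12.4 (95% counting interval 3.35 to 104) and Ccr8 of 21.6 (3.77 to 865), and Ccr6, Ccr1l1 and Ccr3 were at least 5.95-fold, 4.69-fold and 3.61-fold higher. Those calls were lost without sham 1 for Ccr4 (2.64; 7.52 without sham 2), without sham 2 for Ccr8 (3.27; 7.28 without sham 1), without sham 1 or sham 2 for Ccr6 and Ccr3, and for Ccr3 also with the replicate block. Between the injured groups Ccr3 was -2.58 without uIRI+MSC 2.

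Among the atypical receptors, Ackr1 of venular endothelium and red cells stood at 0.335, 0.214 and 1.68 CPM in uIRI+MSC, 3.94, 1.58 and 1.74 CPM in uIRI, and 0 and 0.276 CPM in sham. It had 3 counts in sham, a ratio of 4.39 in uIRI+MSC (95% counting interval 1.37 to 22.4) and 17.8 in uIRI (5.99 to 86.9). It passed in uIRI (4.04 ± 1.21, adjusted p = 0.0206, edgeR; not passed without sham 1, 3.13, or with the replicate block, 3.74; 8.58 without sham 2) and not in uIRI+MSC (2.24 ± 1.34; 1.01 without uIRI+MSC 3, 1.34 without sham 1 and 6.79 without sham 2). Ackr2, which clears inflammatory CC chemokines, stood at 0.419, 0.715 and 1.93 CPM in uIRI+MSC, 1.48, 1.32 and 1.84 CPM in uIRI, and 0.0972 and 0.460 CPM in sham. It passed in uIRI (2.42 ± 0.82, adjusted p = 0.0342, edgeR), a call lost without uIRI 1, 2 or 3, without sham 1 (1.75) and with the replicate block, and was 3.92 without sham 2. For both genes uIRI+MSC 3 lay far above the other libraries of its group.

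Of 38 textbook pairs, which share genes and are not independent, 32 had both partners tested. In uIRI both partners were higher in 24 pairs, the receptor alone passed in 6, and the partners passed in opposite directions in 2, Ccl25 with Ccr9 and Ccl28 with Ccr3. In uIRI+MSC both partners were higher in 17 pairs, the ligand alone passed in 6, the receptor alone in 8 and neither in 1. A partner that passed alone is counted in either direction. Among these Ackr3 was lower in both comparisons, and Ccl28, paired with Ccr3, was lower in uIRI+MSC. Of all tested genes 28.3% were higher in uIRI and 22.1% in uIRI+MSC, which are shares of single genes and not of pairs. All 16 tested signalling receptors were higher in uIRI, 9 of them with fewer than 10 counts in each sham library. A pair with such a receptor could therefore differ in uIRI only by its ligand. The receptor-only pairs in uIRI included Cxcl12 with Cxcr4, Cxcl12 with Ackr3, Cxcl11 with Cxcr3, Cxcl11 with Ackr3 and Cxcl13 with Cxcr5.

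Summed over all ligand entries, deposited FPKM came to 392, 406 and 361 in uIRI+MSC, 619, 558 and 616 in uIRI, and 56.8 and 49.0 in sham. For signalling receptors the sums were 35.4, 47.6 and 39.8 in uIRI+MSC, 78.7, 56.0 and 73.4 in uIRI, and 4.16 and 4.07 in sham. On the CPM scale, which TMM makes comparable between libraries, ligands summed to 1175, 1188 and 1134 in uIRI+MSC, 1484, 1492 and 1431 in uIRI, and 366 and 288 in sham. Receptors summed to 153, 199 and 173 CPM in uIRI+MSC, 282, 239 and 315 CPM in uIRI, and 23.8 and 23.6 CPM in sham. The gap to sham was wider on the FPKM scale for both sums. That scale weights short genes more and also lacks TMM scaling. The TMM factors were 0.706 and 0.766 in sham and 1.13 to 1.22 in uIRI, so the size of the gap between groups is better read from CPM. On both scales and for both sums uIRI+MSC lay between uIRI and sham with no overlap. The ratio of ligands to receptors within a library, which no scaling of the library can move, was, from FPKM, 11.1, 8.53 and 9.07 in uIRI+MSC, 7.87, 9.97 and 8.39 in uIRI, and 13.7 and 12.0 in sham. From CPM it was 7.71, 5.98 and 6.55 in uIRI+MSC, 5.26, 6.25 and 4.55 in uIRI, and 15.4 and 12.2 in sham. On both scales the injured groups overlapped in this ratio and lay below sham. The ligand sum holds Cx3cl1, but the receptor sum lacks its receptor Cx3cr1, which falls outside the naming rule. Cx3cr1 averaged 12.6 FPKM in uIRI+MSC, 23.2 FPKM in uIRI and 0.914 FPKM in sham, so the receptor sums and the ratio hold for the members only. These sums are descriptions and were not tested.

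**Figure D4:**
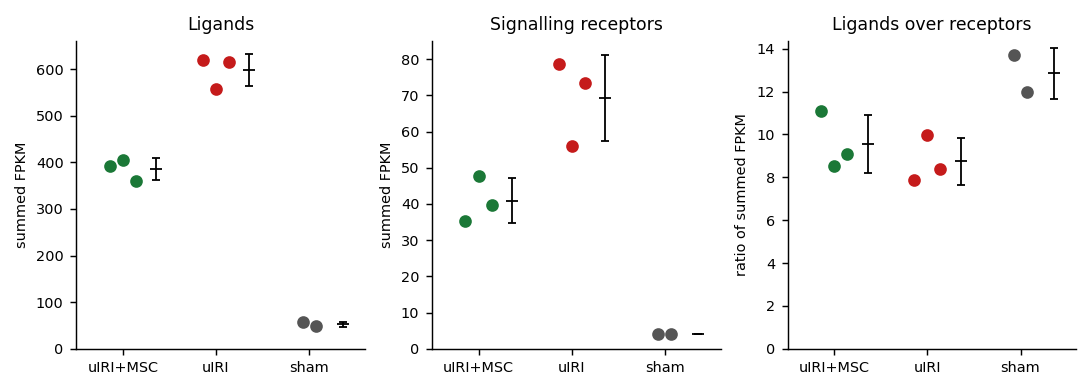
Summed FPKM of all member ligands (left) and all member signalling receptors (middle, without Cx3cr1) and their ratio (right) in each library of uIRI+MSC, uIRI and sham. Points are libraries, bars the mean and SD. Ligands sum to 361 to 406 in uIRI+MSC, 558 to 619 in uIRI and 49.0 to 56.8 in sham, on a scale without TMM.

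The comparison of uIRI+MSC with uIRI asks what differed between injured kidneys with and without the transplanted cells. No member passed edgeR, and neither did any of the 16576 tested genes (0 genes, 0%). Before adjustment, p was under 0.05 for 3418 genes (20.6%; 11.3% above and 9.34% below uIRI), and among the members 14, with 3 above and 11 below. Limma-voom also called 0 genes, and DESeq2 called 1364 (8.23%; 4.79% above and 3.44% below uIRI), 9 of them members. Of the 50 tested members 40 had a log2 change below 0, beside 8445 of all 16576 tested genes. The median was -0.63 for the members and -0.01 for all tested genes. With at least 50 counts in 2 libraries these medians were -0.44 and -0.004, with 28 of 35 tested members below 0. The libraries did not overlap for 3 members above uIRI (Cxcl11, Cxcl17 and Ccl25) and 12 below it, beside 14.1% and 12.7% of all tested genes (26.9% in all). A change that did not pass is given as a value and not as a rise or fall, and some members below were chosen after their values were seen.

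**Figure D5:**
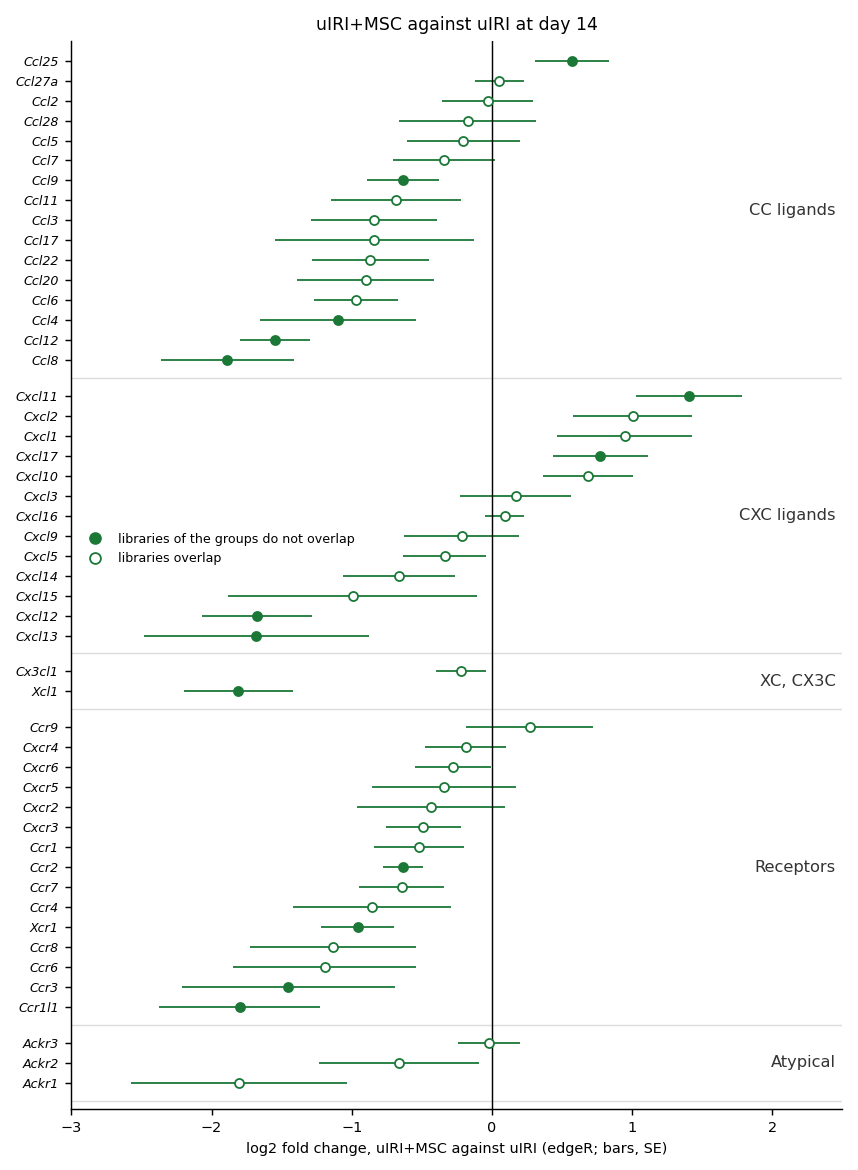
Log2 fold change of uIRI+MSC against uIRI (x axis, edgeR, bars show SE) for 49 tested members by class. Filled points mark members whose libraries do not overlap between the groups; no member passed an adjusted p of 0.05. The receptors lie left of 0 except Ccr9 (0.27), while the CXC ligands spread from -1.68 to 1.41.

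Receptors and CC ligands lay mostly below uIRI and CXC ligands on both sides. Of 16 tested receptors 15 were below 0, with a median of -0.64, and of 16 CC ligands 14 were below 0, with a median of -0.76. Of 13 CXC ligands 7 were above 0, with a median of 0.09. Of all 16576 tested genes 8445 were below 0. Members of a class were measured in the same libraries and are not independent. Some also passed the count filter through uIRI alone, where a value below 0 is favoured beforehand. Without the uIRI libraries 40 members passed that filter in place of 50. Ccr1l1 had 20, 22 and 10 counts in uIRI and 4, 1 and 4 in uIRI+MSC. Ccr3 had 16, 12 and 12 counts in uIRI and 3, 6 and 0 in uIRI+MSC. The splits and medians by class thus describe the members that could be tested. The change of Ccr2 was -0.63 ± 0.14 (adjusted p = 0.111, edgeR). Xcr1 was at -0.96 ± 0.26 (adjusted p = 0.123, edgeR) and its ligand Xcl1 at -1.81 ± 0.39 (adjusted p = 0.111, edgeR). For each of these 3 genes every uIRI+MSC library was below every uIRI library. Cx3cr1, by the same test, was at -0.73 ± 0.11 (adjusted p = 0.111, edgeR), beside -0.22 ± 0.18 for Cx3cl1. The 12 macrophage markers had a median of -0.92 in this comparison and 0 of them passed. The 10 T cell markers had a median of -0.37 and 0 passed. Their part in the receptor values was not tested.

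In the first run on chromosome 11 the members differed. Ccl2 was at -0.03 ± 0.32 (adjusted p = 0.971, edgeR) and turned sign with limma-voom, with the replicate block and without single libraries, within -0.30 to 0.38. In the same run Ccl12 was at -1.55 ± 0.25 (adjusted p = 0.111, edgeR) and Ccl8 at -1.89 ± 0.48 (adjusted p = 0.118, edgeR; -1.21 without uIRI 3). Ccl12 and Ccl8 each had every uIRI+MSC library below every uIRI library, while Ccl2 overlapped. In the second run Ccl6 was at -0.97 ± 0.30, Ccl9 at -0.63 ± 0.26 and Ccl4 at -1.10 ± 0.56, against -0.20 ± 0.40 for Ccl5 (0.17 without uIRI+MSC 3). The difference between changes of genes in a run was not tested.

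Cxcl12 had a change of -1.68 ± 0.39 (adjusted p = 0.111, edgeR), with all uIRI+MSC libraries below all of uIRI. Fibroblast markers summed to 2132 to 3918 CPM in uIRI+MSC, 3598 to 8529 CPM in uIRI and 312 to 443 CPM in sham, and their part was not tested. Its receptors had values nearer 0, with Cxcr4 at -0.19 ± 0.29 (0.15 without uIRI 1) and Ackr3 at -0.02 ± 0.22 (-0.21 to 0.20 on leaving out single libraries). On the other side of 0 were Cxcl11 at 1.41 ± 0.38 (adjusted p = 0.123, edgeR), Cxcl2 at 1.00 ± 0.43 (adjusted p = 0.24, edgeR), Cxcl1 at 0.95 ± 0.48 (adjusted p = 0.307, edgeR; 1.67 without uIRI 2), Cxcl17 at 0.77 ± 0.34 and Cxcl10 at 0.68 ± 0.32. Only Cxcl11 and Cxcl17 of these had every uIRI+MSC library above every uIRI library. Cxcl16 was at 0.09 ± 0.14 and Cxcl5 at -0.34 ± 0.30, neither passing. Among the receptors of these ligands Cxcr2 was at -0.43 ± 0.53, Cxcr3 at -0.49 ± 0.27 and Cxcr6 at -0.28 ± 0.27. Ackr1 was at -1.81 ± 0.77 (-3.05 without uIRI+MSC 3) and Ccr7 at -0.64 ± 0.30, both overlapping.

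The 9 members that DESeq2 called included Ccl12, Ccl8, Cxcl12, Ccr2, Xcl1, Xcr1 and Ccl6 below uIRI and Cxcl11 above it. The smallest adjusted p was that of Ccl12, 5.73e-05 by DESeq2, which ranged to 0.23 over the alternatives for that gene. Cxcl11 had 0.0394 by DESeq2, ranging to 0.303. With leaving out of single libraries edgeR called 0 to 8 genes in this comparison, none a member.

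Of 32 genes that relay receptor signals, 28 were higher and 1 lower (Ptk2b) in uIRI, and 26 higher and 1 lower in uIRI+MSC, beside 28.3% of all tested genes higher in uIRI and 22.1% in uIRI+MSC. Those shares also apply to the factors and proteases counted next. Dock2, which activates Rac in migrating leukocytes, stood at 45.7, 50.03 and 50.7 CPM in uIRI+MSC, 80.0, 62.2 and 73.9 CPM in uIRI, and 4.57 and 4.70 CPM in sham. The kinase gene Ptk2b stood at 94.6, 92.1 and 94.8 CPM in uIRI+MSC, 74.1, 93.5 and 89.4 CPM in uIRI, and 133 and 120.3 CPM in sham, and its change against sham turned sign with library size alone. Its call in uIRI was also lost without sham 1, and that in uIRI+MSC with no filter, with the replicate block and without any 1 library other than uIRI 1 and uIRI 2. Of 15 tested factors that induce chemokines, 15 were higher in uIRI and 12 in uIRI+MSC. Rel, an NF-κB subunit of leukocytes, rose by 2.26 ± 0.21 in uIRI+MSC and 2.52 ± 0.21 in uIRI, and Nfkb1, a subunit found in most cells, by 1.55 ± 0.13 and 1.74 ± 0.14. Il1b, an inducer of Cxcl1 and Ccl2, stood at 10.1, 17.1 and 18.2 CPM in uIRI+MSC, 33.7, 27.3 and 29.5 CPM in uIRI, and 1.36 and 2.21 CPM in sham, with the groups apart.

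Of 6 tested proteases that trim chemokines, 3 rose in each injured group and 0 fell. Mmp2, which cleaves Ccl7 and Cxcl12, rose by 4.31 ± 0.46 in uIRI+MSC and 5.27 ± 0.48 in uIRI, and Mmp12 of macrophages by 4.54 ± 0.79 and 5.87 ± 0.83 (5.15 in uIRI without uIRI 1). Of 10 further chemokine-system genes, Cx3cr1 among them, 5 rose in each injured group, and 1 was lower in uIRI. Of all tested genes 28.3% were higher and 26.3% lower in uIRI, and 22.1% were higher in uIRI+MSC. The lower one was Mif, a cytokine that binds Cxcr2 and Cxcr4, at 90.3, 76.1 and 45.7 CPM in uIRI+MSC, 42.8, 63.8 and 64.3 CPM in uIRI, and 123 and 119 CPM in sham. In uIRI+MSC against sham Mif was at -0.77 and did not pass (adjusted p = 0.052, edgeR), but passed as lower under 6 alternatives, DESeq2 and limma-voom among them. Its call in uIRI was lost with library size alone (-0.43) and without sham 1 (-1.05).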

How the data were processed

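Messenger RNA was sequenced from 8 mouse kidney libraries. Per the file headers, the deposited table gives raw read counts per gene and, per the file headers, FPKM values in which the authors divided those counts by length and depth. Tools in the submitters' processing notes are HISAT2 2.0.4 and Bowtie2 2.2.6, StringTie 1.3.3b, SAMtools 1.9, edgeR 3.2.0 and FastQC 0.10.1, with build GRCm38; the sources used here do not name the counter, strand or annotation release, so reads of overlapping genes and near-identical copies may be misassigned.

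Counts were filtered with filterByExpr (minimum count 10), scaled by TMM and fitted with edgeR 4.0.16 (glmQLFit with legacy=TRUE, glmQLFTest, 5 residual degrees of freedom) under R 4.3.3, all 3 groups together. The SE is the log2 change over the square root of F. The table has 0 rows without a gene name and 0 columns of other series. Alternatives were DESeq2 1.42.0, limma-voom (limma 3.58.1), other scalings, filters and designs, and leaving out each library. The fit was tested on simulated data. Figures used matplotlib 3.10.9 under Python 3.11.15.

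Members and gene lists were chosen with earlier results of these data known. Named with fold and test were members past the threshold in that comparison and fixed ones (among them Ccl2, Ccr2, Cxcl1, Cxcr2, Cxcl10, Cxcr3, Cxcl12, Cxcr4, Ackr3, Cx3cl1, Ccl5, Ccl21a, Ccr7, Ackr1, Cxcl16, Cxcr6), with Cx3cr1 and at most 2 genes per list by smallest p. Ptk2b and Mif, and in uIRI+MSC against uIRI the other members given with a change (such as Ccl8, Ccl12, Xcl1 and Cxcl11), were chosen after their values were seen. One tested member is counted in the totals, and its own values are not reported here.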

Additional observations from a re-analysis of the deposited data

How the results depend on the processing

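Against sham, the counts of members higher stayed within 1.5 times under every alternative run. With library size alone, members lower were 0 in both comparisons with sham, and Ccl27a in uIRI was 0.27, Ptk2b 0.10 in uIRI and 0.087 in uIRI+MSC (and -0.017 in uIRI+MSC against uIRI), and Cxcl16 in uIRI+MSC against uIRI -0.059. On leaving out single libraries, members lower ranged from 1 to 3 in uIRI against sham and from 1 to 2 in uIRI+MSC against sham, and genes passing in uIRI+MSC against sham from 3938 (without sham 1) to 6914, against 7029 in all. In uIRI+MSC against uIRI, DESeq2 called 1364 genes, with 1 member higher and 8 lower, where edgeR called 0. Without single libraries edgeR called 0 to 8 genes there (8 without uIRI 1). In that comparison Ccl2 was 0.028 with limma-voom and 0.019 with the replicate block, and on leaving out libraries ranged from -0.30 to 0.38, Ackr3 from -0.21 to 0.20, Ccl5 from -0.69 to 0.17, Cxcl16 from -0.046 to 0.18, Cxcl5 from -0.55 to 0.00115 and Cxcr4 from -0.45 to 0.15; the cause was not tested. The replicate block left 7959 genes, 38 members higher and 2 lower in uIRI against sham. Deviations of same-numbered libraries from their group means correlated at -0.209 to 0.111. With 2 or 3 libraries a group these values cannot show whether the numbers pair the samples, which the labels do not state. Where sham kept 1 library, its spread is taken to be that of the remaining groups. Depth limits the members with few counts in sham, whose folds are bounds or wide intervals.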
